A study of Mus musculus with 9 samples.

Results

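Promoters that carried an ATAC-seq peak in every one of 9 libraries of sorted mouse embryonic cells are described here. ATAC-seq uses a transposase to insert sequencing adapters into accessible DNA, and a peak is an interval in which insertions pile up. The peaks of the 9 libraries on chromosomes 1 to 19 and X were merged into 73301 regions wherever they overlapped by at least 1 bp. A region was kept when it was shorter than 2000 bp, overlapped a peak of each library and lay within 1 kb of an annotated transcription start site (TSS). The rule left 10338 members, which were 14.1% of all merged regions and 75.8% of the 13644 regions with a peak in all 9 libraries. Another 150 promoters with a peak in all 9 libraries were 2000 bp or longer and are called broad here, and the remaining 3156 of the 13644 regions lay farther than 1 kb from any TSS and are called distal. The members were chosen by the presence of a peak, the merged width and the distance to a TSS, so these 3 measures are given as description and were not tested.

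The libraries came from GFP-positive cells of pooled Swiss Webster embryos at E9.5, with 3 libraries in each of 3 groups, and all embryos carried a Cre-dependent GFP reporter at Rosa26 (Rosa26-GFPflox/+). The Mesp1-Cre Ctrl group (Mesp1Cre;Rosa26-GFPflox/+) held the Mesp1 lineage, which marks early mesoderm. The Tbx1-Cre Ctrl group (Tbx1Cre;Rosa26-GFPflox/+) held the Tbx1 lineage, which includes mesoderm, endoderm and ectoderm of the pharyngeal apparatus. The Tbx1-Cre cKO group (Tbx1Cre/flox;Rosa26-GFPflox/+) held the same lineage with the Cre allele over a floxed Tbx1 allele. The Cre sits in the Tbx1 locus and inactivates that copy, so the Tbx1-Cre Ctrl cells were heterozygous for Tbx1, whose product is a T-box transcription factor. The labels give the tissue of the Mesp1-Cre libraries as pharyngeal apparatus with heart and that of the Tbx1-Cre libraries as including the back as well, whereas the methods describe dissection without the heart. Below, Ctrl without a prefix means Tbx1-Cre Ctrl. Mesp1-Cre Ctrl and Ctrl differ at once in lineage, labelled tissue, Tbx1 copies and possibly the handling of the lists. In comparisons of these groups such differences cannot be told apart. The study describes the libraries as biological replicates, each from its own pool of embryos, so the p-values measure the spread between such pools together with technical spread. The peak numbers in its sample summary match the Tbx1-Cre lists by replicate, whereas for Mesp1-Cre they match the deposited lists 2 and 3 under other replicate numbers and do not include that of list 1. The origin of Mesp1-Cre Ctrl library 1 is thus uncertain, and results for this group are also given without it.

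Active promoters in mammals share a stretch of DNA without stable nucleosomes around the TSS, and many lie in CpG islands, which escape the DNA methylation that depletes CG dinucleotides elsewhere. Genes used by nearly every cell usually have such promoters, which are bound by widely expressed factors of the SP/KLF, ETS, NRF1, YY1, NF-Y and CREB families. Tissue-restricted genes more often have CpG-poor promoters, some with a TATA box, and rely more on distal enhancers.

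The lists held between 19772 and 49490 peaks per library, with 42650, 25485 and 30535 in Mesp1-Cre Ctrl libraries 1 to 3, 49490, 43298 and 47013 in Ctrl, and 29251, 24042 and 19772 in cKO. The files hold intervals without heights or read numbers, so read depth is unknown, and DNA without a called peak may still have been open. Markers of other cell types had fewer promoter peaks in most cKO libraries, whose lists were shorter, than in Ctrl, while Mesp1-Cre Ctrl overlapped Ctrl. Of 16 pharyngeal epithelium markers, 10, 7 and 9 had a promoter peak in the Ctrl libraries, 4, 3 and 3 in cKO, and 8, 6 and 8 in Mesp1-Cre Ctrl. The study states that the Mesp1 lineage does not include the pharyngeal epithelium, so a peak at these promoters need not mean that cell type. Of 12 endothelial markers, 5, 6 and 7 had one in Ctrl, 2, 5 and 2 in cKO and 8, 6 and 4 in Mesp1-Cre Ctrl, and the defining endothelial genes Cdh5, Pecam1 and Tie1 had none in any library. A list of 38 cardiopharyngeal mesoderm genes was also used, most of them named in the study's main text. Gata4, Irs4 and Eya1 are not named there, and Pax8 is named as a gene that mesoderm does not normally express. Of these 38, 29, 32 and 30 had a promoter peak in Ctrl, 27, 24 and 22 in cKO and 30, 27 and 29 in Mesp1-Cre Ctrl. Here and for the epithelium markers every cKO library lay below every Ctrl library. The same held in lists not tied to these tissues. Of 39 interleukin genes 6, 6 and 6 had a promoter peak in Ctrl and 5, 5 and 4 in cKO. Of 361 zinc finger genes named Zfp, 300, 301 and 302 had one in Ctrl and 295, 291 and 281 in cKO. At 81 cytosolic ribosomal protein genes the groups overlapped, with 77, 78 and 78 against 78, 75 and 76. At the endothelial markers cKO library 2 and Ctrl library 1 had 5 each. The part of list length in these counts, and the part of these counts in the width differences, were not tested. In such sorted populations fewer cells of a type and less accessibility per cell cannot be told apart. Tbx1 had a promoter peak in all 3 Ctrl, in 2 of 3 Mesp1-Cre Ctrl and in none of the 3 cKO libraries, and is therefore not a member.

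The first sequences shown are examples of the short factor motifs that were more frequent at member promoters than at coding promoters in general. All are promoters of ribosomal protein genes, the first list searched. Sequences are from the mm9 genome and run 5′ to 3′ on the strand of the gene, within 250 bp before and 30 bp after the TSS, and capitals mark every match to a motif searched. The matches shown are, in order, CCGGAAGT of the ETS family, GCGCATGCG of NRF1, AAGATGGCG of YY1 on the opposite strand, TGACGTCA of CREB and the element TCTCGCGAG.
Rpl11 (chr4:135609279-135609332, minus strand): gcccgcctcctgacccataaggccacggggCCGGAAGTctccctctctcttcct
Rpl37a (chr1:72757811-72757863, plus strand): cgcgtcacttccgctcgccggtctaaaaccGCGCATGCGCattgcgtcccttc
Rpl24 (chr16:55966481-55966549, plus strand): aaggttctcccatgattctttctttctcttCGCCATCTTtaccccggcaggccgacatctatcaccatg
Rpl13 (chr8:125626196-125626263, plus strand): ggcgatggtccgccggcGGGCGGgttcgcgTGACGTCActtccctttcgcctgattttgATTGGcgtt
Rpl26 (chr11:68715013-68715081, plus strand): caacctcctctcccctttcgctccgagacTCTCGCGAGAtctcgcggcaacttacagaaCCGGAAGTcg

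The next promoters are those with which the width comparisons described further on begin, together with the first member of the mesoderm list, Isl1. Each runs from 250 bp before the TSS to 50 bp from it, again with motif matches in capitals. Slc9a9 and Carm1 had the smallest p for a narrower and a wider promoter in cKO, and Wdr86 and Shroom3 those for a narrower and a wider promoter in Mesp1-Cre Ctrl.
Slc9a9 (chr9:94570101-94570400, plus strand): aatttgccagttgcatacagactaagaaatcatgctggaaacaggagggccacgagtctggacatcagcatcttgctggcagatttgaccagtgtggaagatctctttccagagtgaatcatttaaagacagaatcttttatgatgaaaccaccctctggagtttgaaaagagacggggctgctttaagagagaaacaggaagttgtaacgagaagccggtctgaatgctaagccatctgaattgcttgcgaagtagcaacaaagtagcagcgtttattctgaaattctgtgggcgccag
Carm1 (chr9:21351088-21351387, plus strand): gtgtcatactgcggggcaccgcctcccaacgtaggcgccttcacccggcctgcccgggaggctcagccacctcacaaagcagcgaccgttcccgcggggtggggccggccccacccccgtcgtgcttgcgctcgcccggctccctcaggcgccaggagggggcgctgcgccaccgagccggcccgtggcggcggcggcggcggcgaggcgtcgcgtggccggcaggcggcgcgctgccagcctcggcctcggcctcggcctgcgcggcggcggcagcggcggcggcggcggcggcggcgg
Wdr86 (chr5:24236496-24236795, minus strand): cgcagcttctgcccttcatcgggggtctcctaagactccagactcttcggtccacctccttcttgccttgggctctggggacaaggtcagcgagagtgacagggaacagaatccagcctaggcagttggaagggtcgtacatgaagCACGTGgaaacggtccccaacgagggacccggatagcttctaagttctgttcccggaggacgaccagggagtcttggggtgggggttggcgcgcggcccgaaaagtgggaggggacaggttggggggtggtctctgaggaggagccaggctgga
Shroom3 (chr5:93326769-93327068, plus strand): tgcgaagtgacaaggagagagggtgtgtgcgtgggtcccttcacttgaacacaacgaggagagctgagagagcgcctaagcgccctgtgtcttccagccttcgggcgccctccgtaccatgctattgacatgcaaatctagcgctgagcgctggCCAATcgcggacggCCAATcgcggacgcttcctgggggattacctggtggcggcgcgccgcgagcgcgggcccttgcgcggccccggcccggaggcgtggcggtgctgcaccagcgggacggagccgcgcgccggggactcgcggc
Isl1 (chr13:117099847-117100146, minus strand): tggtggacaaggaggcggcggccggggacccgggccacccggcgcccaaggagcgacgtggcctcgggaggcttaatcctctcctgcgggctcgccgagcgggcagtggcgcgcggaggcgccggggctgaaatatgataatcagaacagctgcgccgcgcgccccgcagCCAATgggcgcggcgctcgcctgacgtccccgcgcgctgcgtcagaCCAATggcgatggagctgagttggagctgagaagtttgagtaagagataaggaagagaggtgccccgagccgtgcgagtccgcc

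These 5 promoters differed in base composition. The window of Slc9a9, an endosomal sodium-proton exchanger gene, had 44.7% GC and a CpG observed/expected ratio of 0.48, and held none of the motifs. That of Carm1, which encodes a histone arginine methyltransferase, had 81.3% GC and a ratio of 1.01, and also held none. Isl1, a LIM homeodomain gene of second heart field progenitors, held a pair of CCAAT boxes.

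The members' merged widths ran from 343 to 1999 bp with a median of 1079 bp. Just inside the width limit lay regions at Tdrd3 and Auts2 of 1999 bp, and just outside it regions at Ccng2 of 2001 bp and Sh2b2 of 2002 bp. A region 999 bp from a TSS of Fyn was the last within the distance limit, and one 1001 bp from a TSS of Coro1c was the first beyond it. The reference TSS lay inside 96.4% of the members. Of the 18901 promoter regions shorter than 2000 bp, 54.7% had a peak in all 9 libraries, 1265 in 8 and 2483 in only 1, so that intermediate numbers were less frequent than either end of the range. Among the 1265 promoters with a peak in 8 libraries, the library without one was cKO 3, which had the shortest list, in 668, cKO 2 in 211 and Mesp1-Cre Ctrl 2 in 175. The promoter share of the members is set by the rule. For the merged regions without a peak in all 9 libraries it was 14.4%.

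The members lay at 10855 of 22350 protein-coding genes, or 48.6%. A further 160 coding genes had only a broad promoter open in all 9, 3884 had a promoter peak in 1 to 8 libraries, and 7451 had none. In addition the members lay at 601 lincRNA, 106 miRNA, 74 snoRNA and 68 snRNA genes. Coding TSSs on 1 strand alone were found at 8846 members. At 1046 members, or 10.1%, the starts of a divergent pair of coding genes shared a region, with a median of 125 bp between the starts and an interquartile range of 64 to 265 bp. A further 127 members held overlapping coding genes on opposite strands, and 319 held non-coding starts only, 116 of them lincRNA.

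The share of coding genes with a member promoter ran from 35.9% on chromosome X to 57.2% on chromosome 12. Chromosome 7 stood at 39.5% and chromosome 14 at 39.2%. Clusters of olfactory and vomeronasal receptor genes, which are silent outside sensory neurons, lie on several chromosomes. With these receptors left out, chromosome 7 stood at 48.5%, chromosome 14 at 41.0% and chromosome X at 36.2%, against 51.8% over all chromosomes. Chromosome X thus had the lowest share with and without them.

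Genes that every dividing cell needs were most often members. Against 48.7% of all coding gene symbols, the 41 genes of spliceosome subunits, the 20 cytosolic aminoacyl-tRNA synthetase genes and the 20 genes for replication origin licensing and firing, such as Mcm2 to Mcm7, Orc1 and Pcna, all had member promoters. So did 27 of 28 genes of Mediator, the complex that links activators to RNA polymerase II, with Med27 as the exception. Members included 39 of 41 genes named for respiratory complex I, 35 of 39 for the proteasome, 51 of 57 named Eif, most of which encode translation initiation factors, 34 of 39 for RNA polymerase II and its general factors, and 65 of 75 for mitochondrial ribosomal proteins. For cytosolic ribosomal proteins the count was 72 of 81. The others included Rpl3l, Rpl10l and Rpl39l, tissue-restricted relatives, but also Rpl7, Rpl38 and Rps4x. Of the proteasome genes without a member promoter, Psmb8 and Psmb11 encode immune and thymic variants and Psma8 a testis variant of a subunit. The remaining one was Psmd9, while Psmb9 and Psmb10 were among the members.

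Lists of regulators were split. Of 361 zinc finger genes named Zfp, 268 were members, and of 24 chromatin remodelling ATPase and BAF subunit genes 17 were, including Smarca4, Smarcb1 and Arid1a, while Chd4 and Chd8 were not. Of 67 histone genes 53 were members, and as these lie close together in clusters and share promoters between divergent pairs, they fell on 34 regions. Vacuolar ATPase genes had 13 of 22, and the 9 others included Atp6v1b1 and Atp6v0a4, known for kidney and inner ear, but also Atp6v1a and Atp6v0b.

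Developmental and tissue-specific genes were less often members. Of 39 Hox genes 4 were members, among them Hoxa3, Hoxc13 and Hoxd10, and of 17 T-box genes 5 were (Mga, Tbr1, Tbx18, Tbx20 and Tbx3). Tbx2 and Tbx15 had a promoter peak in 8 libraries. Among the 38 genes of the mesoderm list 21 were members, or 55.3%, close to the share of all coding genes. They included Isl1, Gata6, Mef2c and Eya1. Hand2 and Aplnr had a promoter peak in all 6 control libraries and in 1 cKO library, and Gata4 in 3 Ctrl, 2 Mesp1-Cre Ctrl and no cKO libraries. Tbx5, Myf5 and Fgf8 had none in any. Since most of that list comes from the study's work on this tissue, its share is no independent evidence.

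Markers of differentiated cells were rarely members: 2 of 15 cardiac sarcomere genes (Actn2 and Myl4), 2 of 16 pharyngeal epithelium markers (Krt8 and Pax9), 2 of 12 endothelial markers (Kdr and Flt1) and 3 of 10 blood markers (Klf1, Epor and Runx1). No library had a promoter peak at Myh6, Myh7, Myl7 or Nppa, which mark cardiomyocytes. Other sarcomere genes had one in some libraries: Actc1 in 5, Tnni1 in 4, Ttn in 3, Tnnc1 in 2 and Myl3 in 1. Neural crest markers had 4 of 8. Of 1406 olfactory and vomeronasal receptor genes 1 was a member, of 50 keratin genes 1, of 47 Cyp2 genes 4 and of 39 interleukin genes 4. The plot of gene lists shows the genes of each list by promoter state.

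**Figure D1:**
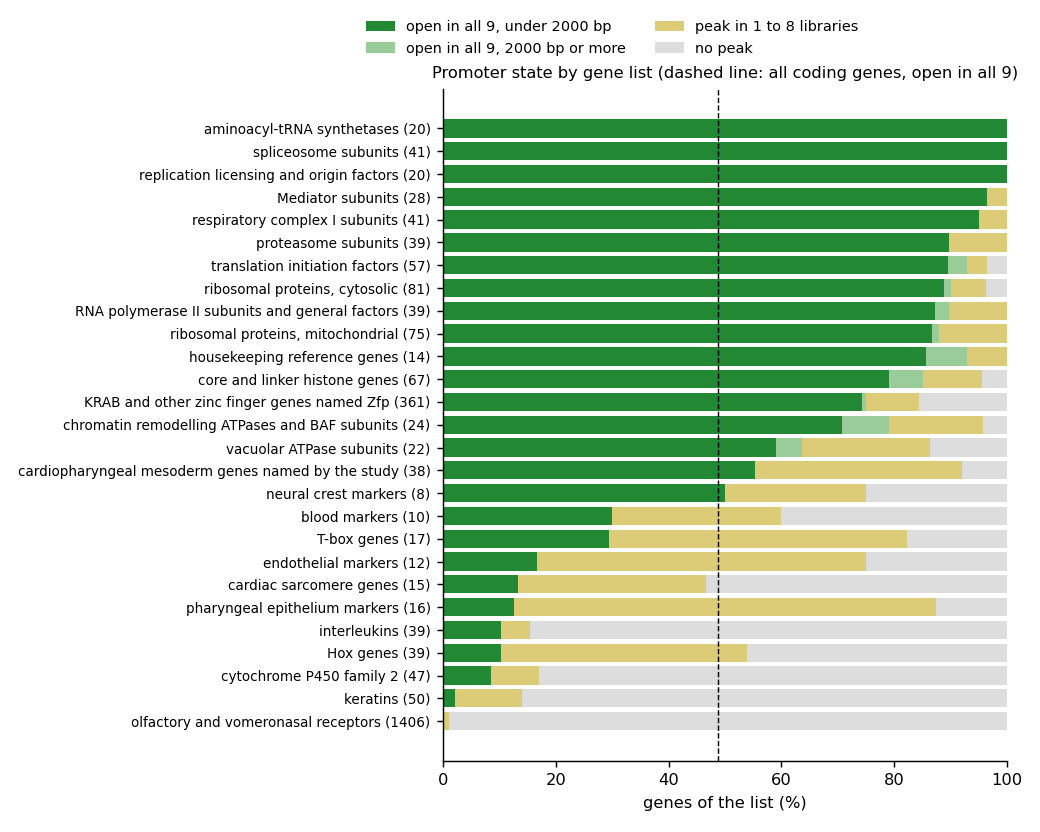
Promoter state of the genes of each list, as percent of the list on the horizontal axis, with the number of genes in parentheses. The dashed line is the 48.7% of all coding gene symbols with a member promoter, and lists of general cell functions lie to its right while Hox, keratin and receptor genes lie to its left.

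The sequence around the TSS set member promoters apart from promoters with fewer peaks, in features that the rule did not use. The window of 250 bp before to 50 bp after the TSS had a median GC content of 61.3% at coding genes with a member promoter, 57.3% at those with a peak in 1 to 8 libraries and 45.3% at those without a peak. The median CpG observed/expected ratio, in which 1 means as many CG dinucleotides as the base content predicts, was 0.779, 0.513 and 0.174 at these 3 sets. The distal regions open in all 9 had 55.0% and 0.359. The interquartile ranges of the ratio, 0.596 to 0.92 at member genes and 0.089 to 0.305 at genes without a peak, did not overlap.

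Matches were counted on both strands in the same window, first at all coding genes. GGGCGG, the core of the SP/KLF motif, occurred at 65.5% of genes with a member promoter, 43.7% of all coding genes and 9.27% of genes without a peak. The ETS motif CCGGAAGT occurred at 8.42%, 4.76% and 0.752%. For NRF1 (GCGCATGCG) the shares were 3.71%, 2.08% and 0.268%, and for YY1 (AAGATGGCG) 3.42%, 1.96% and 0.416%. The CREB motif TGACGTCA was found at 3.68%, 2.34% and 0.752%. TCTCGCGAG, an element of some housekeeping promoters, was rarer, at 1.48%, 0.828% and 0.161%. The E-box CACGTG lay at 10.2%, 7.75% and 3.97%. Each of these 7 motifs was thus more frequent at member genes than at genes without a peak. None of the 10 motifs searched contains another, although neighbouring matches can share bases.

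The other 3 motifs did not follow that order. CCAAT, bound by NF-Y, occurred at 39.9% of member genes and 38.2% of genes without a peak. TATAAA occurred at 6.34% of member genes, 13.4% of all coding genes and 26.1% of genes without a peak. The T-box motif AGGTGTGA was found at 0.7% of member genes and 1.68% of genes without a peak. At distal regions open in all 9, in windows of the same length, GGGCGG occurred at 30.3%, CCGGAAGT at 1.24% and AAGATGGCG at 0.38%, each below the member genes. These matches are a description of letters, and base composition alone changes how often such letters occur.

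**Figure D2:**
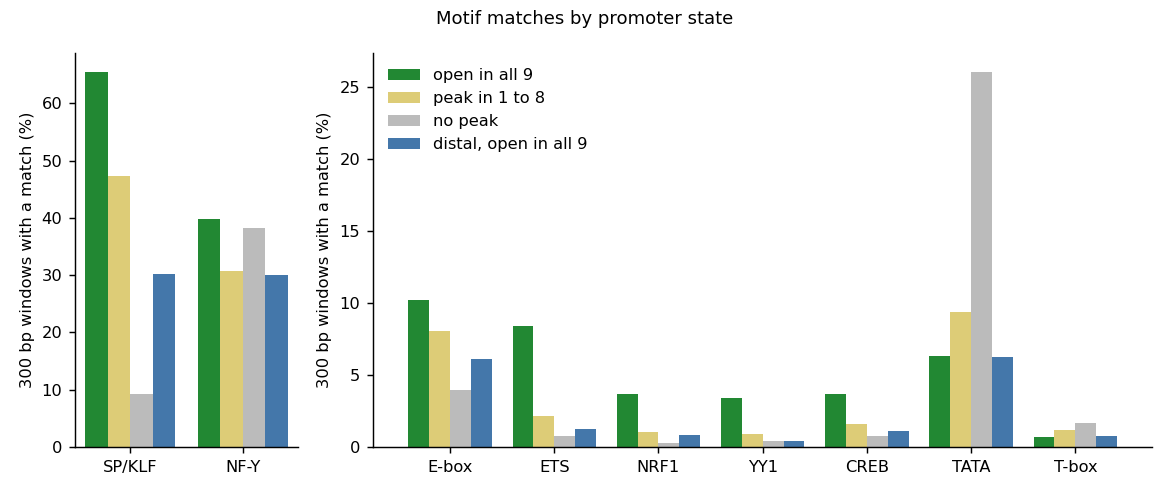
Percent of 300 bp windows with at least 1 match to each motif, for coding genes with a member promoter, with a peak in 1 to 8 libraries and with no peak, and for distal regions open in all 9. SP/KLF, ETS, NRF1, YY1 and CREB matches are most frequent at member genes and TATA matches at genes with no peak.

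The position and strand of the matches differed between motifs over the 10338 members. YY1 matches lay closest to the TSS. Their starts on the strand of the gene had a median of 8 bp after the TSS and an interquartile range of -16.75 to 21 bp, and 76.9% of all YY1 matches were on that strand. ETS matches had a median of -45 bp and were on the strand of the gene in 55.5%. NRF1, CREB and SP/KLF matches lay farther upstream, with medians of -65.5, -62.5 and -76 bp. CCAAT matches were farthest upstream of these, with a median of -96 bp and 50.1% on the strand of the gene. An ETS, NRF1, YY1, CREB or TCTCGCGAG match was found at 2003 members, or 19.4%.

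Within each library, the covered length of a member is the number of its base pairs under that library's peaks. The median over the members was 907, 855.5 and 897 bp in Ctrl libraries 1 to 3, 726.5, 730 and 631 bp in cKO and 851, 695 and 781 bp in Mesp1-Cre Ctrl. Every cKO library and every Mesp1-Cre Ctrl library lay below every Ctrl library. Group means were 886.5 ± 27.3 bp in Ctrl, 696 ± 56.2 bp in cKO and 776 ± 78.1 bp in Mesp1-Cre Ctrl (SD, n = 3). The cKO mean differed from Ctrl by -191 bp, or -21.5% (exact two-sided permutation test, p = 0.1), and the Mesp1-Cre Ctrl mean by -111 bp, or -12.5% (exact permutation p = 0.1). With 3 libraries against 3, the smallest p this exact permutation test can give is 0.1. The cKO and Mesp1-Cre Ctrl libraries overlapped (difference -79.8 bp, exact permutation p = 0.3). Without Mesp1-Cre Ctrl library 1 the difference from Ctrl was -148.5 bp (exact permutation p = 0.1, the smallest for 2 against 3) and that between cKO and Mesp1-Cre Ctrl -42.2 bp (exact permutation p = 0.6). The length of the lists moved with these widths. Mesp1-Cre Ctrl library 2, cKO 1 and cKO 2 had 25485, 29251 and 24042 peaks, and their median covered lengths of 695, 726.5 and 730 bp lay close together. The part of list length in the group difference was not tested.

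The difference between cKO and Ctrl was smaller at members than at distal regions. The distal regions open in all 9 had median covered lengths of 758.5, 706 and 735 bp in Ctrl and 577, 515 and 447 bp in cKO, a difference of -220 bp between group means, or 733 ± 26.3 against 513 ± 65.0 bp (SD, n = 3, exact permutation p = 0.1). On the log2 scale, the median covered length of members exceeded that of distal regions by 0.26, 0.28 and 0.29 in the Ctrl libraries, by 0.33, 0.50 and 0.50 in cKO and by 0.36, 0.38 and 0.38 in Mesp1-Cre Ctrl. No cKO and no Mesp1-Cre Ctrl library overlapped Ctrl in this measure. Its mean was 0.27 ± 0.01 in Ctrl and 0.44 ± 0.10 in cKO (SD, n = 3, exact permutation p = 0.1). For Mesp1-Cre Ctrl the mean was higher than in Ctrl by 0.10, and by 0.11 without its library 1 (exact permutation p = 0.1 each). The width limit of 2000 bp bounds the members, and the broad promoters left out by it covered 1833.5, 1665 and 1849.5 bp in Ctrl and 1276.5, 1304 and 998.5 bp in cKO, a difference of -33.1% (exact permutation p = 0.1).

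The difference was larger downstream of the TSS than upstream of it. Reach was measured from the TSS to the outer end of a library's peaks at the 8846 members with coding TSSs on 1 strand. The median upstream reach was 426, 413 and 436 bp in Ctrl, 384, 379 and 345 bp in cKO and 418, 371 and 403 bp in Mesp1-Cre Ctrl. Downstream it was 467, 417.5 and 436 bp in Ctrl, 330, 348 and 295 bp in cKO and 405, 318 and 349 bp in Mesp1-Cre Ctrl. Upstream the cKO mean differed from Ctrl by -55.7 bp, and downstream by -116 bp, without overlap of the libraries on either side (exact permutation p = 0.1 each). Downstream minus upstream reach, a measure chosen after these values were seen, was 41, 4.5 and 0 bp in Ctrl, -54, -31 and -50 bp in cKO and -13, -53 and -54 bp in Mesp1-Cre Ctrl. Both the cKO and the Mesp1-Cre Ctrl libraries lay below all Ctrl libraries (differences of -60.2 and -55.2 bp, exact permutation p = 0.1 each). With all 3 libraries, the Mesp1-Cre Ctrl mean differed from Ctrl by -27.7 bp upstream, where the libraries overlapped (exact permutation p = 0.2). Downstream it differed by -82.8 bp without overlap (exact permutation p = 0.1). Without Mesp1-Cre Ctrl library 1 that group differed from Ctrl by -38.0 bp upstream, -107 bp downstream and -68.7 bp in downstream minus upstream reach (exact permutation p = 0.1 each).

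**Figure D3:**
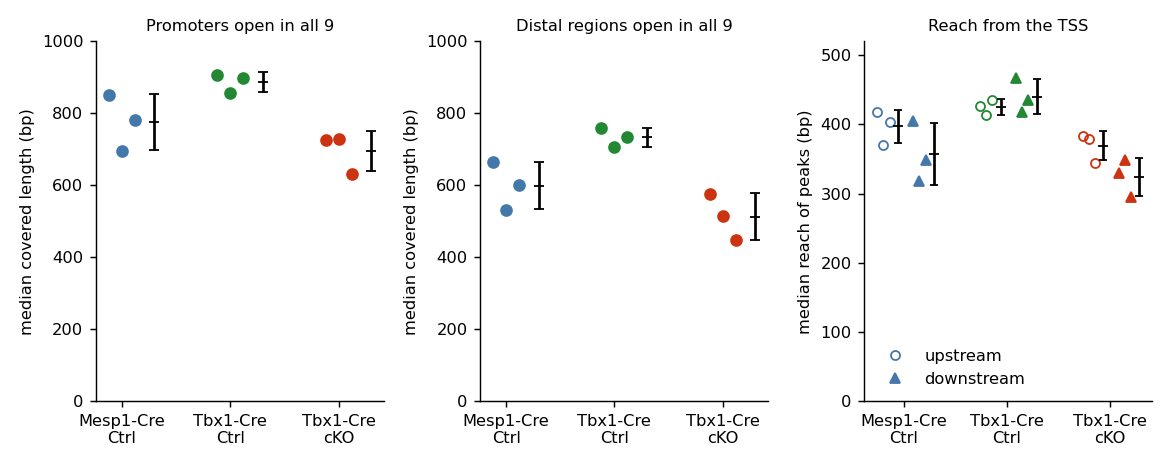
Median covered length of the members and of the distal regions open in all 9, and median reach of peaks upstream (open circles) and downstream (triangles) of the TSS, in bp, with 1 point per library and the mean and SD of 3 libraries in black. The cKO points lie below all Ctrl points in each panel, and the gap in reach is larger downstream.

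The same pattern was seen position by position. At the TSS itself, 92.2 ± 1.44% of these members were under a peak in Ctrl, 90.1 ± 3.28% in Mesp1-Cre Ctrl and 85.2 ± 2.85% in cKO (SD, n = 3). At 500 bp upstream the Ctrl share was 32.5 ± 2.48% and the cKO share 21.3 ± 3.11%, with 21.1 to 30.1% in Mesp1-Cre Ctrl. At 500 bp downstream the share was 38.4 ± 3.85% in Ctrl, 19.5 ± 4.26% in cKO and 25.7 ± 7.64% in Mesp1-Cre Ctrl, so that at this distance the Ctrl mean was higher downstream than upstream and the cKO mean was not.

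**Figure D4:**
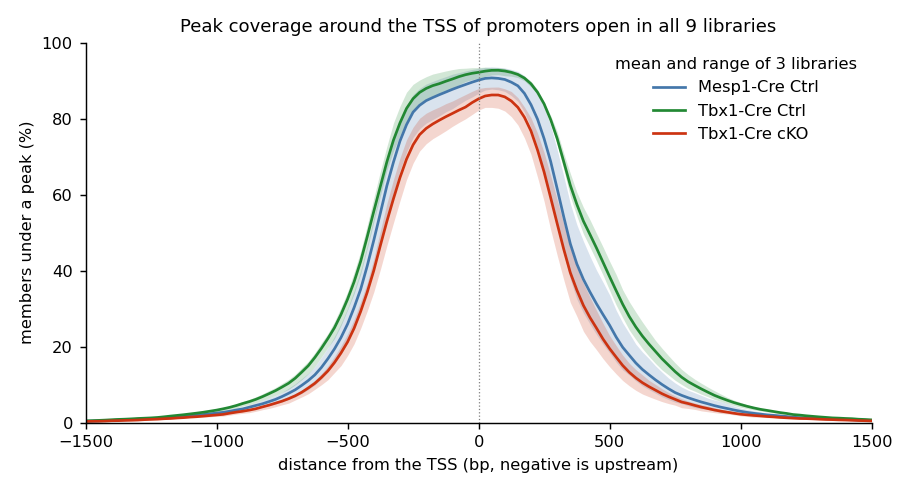
Percent of the 8846 members with coding TSSs on 1 strand that were under a peak, by distance from the TSS in bp, as the mean (line) and range (band) of 3 libraries per group. The Ctrl line is the widest and leans downstream, and at 500 bp downstream it stands at 38.4% against 19.5% in cKO.

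Covered length also varied among the members by type of promoter. Divergent pairs were wider than members with coding starts on 1 strand in 9 of 9 libraries, with 943 ± 41.1 against 881.5 ± 25.6 bp in Ctrl and 783 ± 58.4 against 688 ± 55.4 bp in cKO. Members with non-coding starts only were narrower in 9 of 9, with 810 ± 36.9 bp in Ctrl. Members in the lowest quartile of the CpG ratio (up to 0.652) had 818 ± 19.5 bp in Ctrl and 611 ± 50.9 bp in cKO. Those in the highest quartile (from 0.938) had 947 ± 31.5 and 759 ± 67.1 bp. The difference between the cKO and Ctrl means was -25.3% in the lowest quartile and -20.8%, -19.8% and -19.9% in the others.

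Members with and without a motif match were also compared in width, as a description without a test. Those with an ETS match were narrower than those without in 9 of 9 libraries, with 821 ± 21.4 against 893 ± 28.2 bp in Ctrl, while their median CpG ratio was 0.845 against 0.803. Those with a TATA match were narrower in 9 of 9, with 820 ± 34.9 against 890 ± 27.0 bp. Those with GGGCGG were wider in 9 of 9, with 914 ± 30.3 against 822 ± 24.2 bp, and those with TCTCGCGAG were wider in 9 of 9. Members with an E-box match, and the 66 with a T-box match, were narrower in 9 of 9. For the other motifs the libraries were not unanimous. Members with a match were wider in 8 libraries for NRF1, 7 for YY1, 2 for NF-Y and 1 for CREB.

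Promoters of the gene lists differed in width in the same terms. The 75 regions of cytosolic ribosomal protein genes had a median of 690 bp in Ctrl and 614 bp in cKO, a difference of -11.1%, and those of mitochondrial ribosomal proteins 762 and 630 bp, or -17.4%. The regions of replication licensing genes were wider, with 960 and 757 bp, or -21.1%. For the 24 regions of mesoderm genes the medians were 838 and 619 bp, or -26.1%, and for housekeeping genes 884 and 768.5 bp, or -13.0%. Over all members the difference was -21.5%. The lists did not split by kind of gene: spliceosome genes stood at -22.1% over 43 regions and T-box genes at -14.2% over 5. Neural crest markers stood at -15.9% and Hox genes at 1.0%, over 4 regions each.

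At the extremes of the range, the 5 members with the smallest mean covered length lay at Rpl8, Pax9, H2-Ab1, Arhgap22 and Hnrnpd. Rpl8 covered 212, 213 and 200 bp in Ctrl, 233, 227 and 320 bp in cKO and 234, 403 and 314 bp in Mesp1-Cre Ctrl. Pax9, a transcription factor gene of the pharyngeal pouches, covered 256, 277 and 295 bp in Ctrl and 213, 269 and 248 bp in cKO. These values lie near the narrowest peak in the lists, 200 bp in the Tbx1-Cre libraries and 199 bp in the Mesp1-Cre libraries. Among the widest were those at Ppp2r5a, a regulatory subunit of protein phosphatase 2A, Sp4, itself an SP factor, Zbtb20 and Ankrd10. Ppp2r5a covered 1843, 1733 and 1721 bp in Ctrl, 1695, 1776 and 1635 bp in cKO and 1765, 1690 and 1763 bp in Mesp1-Cre Ctrl, so that its groups overlapped. Sp4 covered 1680, 1752 and 1898 bp in Ctrl and 1805, 1724 and 1552 bp in cKO.

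Promoter by promoter, 4243 members, or 41.0%, were narrower in all 3 cKO than in all 3 Ctrl libraries, against 43.9% of the 13644 regions open in all 9. Only 11 were wider in all 3 cKO libraries, or 0.106%, against 0.103% of all regions. To compare members beyond the shift shared by all regions, log2 covered lengths were centred on the median of each library. Then 773 members were narrower in every cKO library, or 7.48%, against 9.9% of all regions and 17.3% of distal regions, and 1519 were wider, or 14.7%, against 13.0% of all regions and 7.98% of distal regions. The members are 75.8% of these 13644 regions, so nearness of their shares to those of all regions is largely set by construction. Beside distal regions, a smaller share of members was narrower and a larger share wider after centring. Centring removed a shared shift: in the fit without it, the median log2 change of all regions from Ctrl to cKO was -0.37 and that of members -0.33. With centring these medians were 0.004 and 0.045.

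No member passed the test for a difference between cKO and Ctrl after centring. In limma over the 13644 regions with Benjamini-Hochberg adjustment, 0.0% of regions had an adjusted p under 0.05, and 712 members were narrower and 772 wider in cKO at an unadjusted p under 0.05. In simulated widths with known changes, this fit found 29% of changes of 1.0 on the log2 scale and 1% of those of 0.5. The lack of calls therefore does not show that the members were alike. Without centring 628 members were narrower in cKO, or 6.07%, against 7.31% of all regions and 10.6% of distal regions, and none was wider. Leaving out cKO library 1 gave 24 narrower and 1 wider member after centring, leaving out cKO library 2 gave 8 narrower and leaving out Mesp1-Cre Ctrl library 2 gave 2 narrower.

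The 5 narrower members with the smallest p lay at Slc9a9, Itga5, Plxna2, Pcdha11 and Vill, all with an adjusted p of 0.0737 in limma. The log2 differences given for single promoters are those after centring. Slc9a9 covered 1059, 936 and 1122 bp in Ctrl, 312, 200 and 200 bp in cKO and 703, 488 and 737 bp in Mesp1-Cre Ctrl, a log2 difference of -1.78 (SE 0.21) between cKO and Ctrl. Itga5, which encodes the fibronectin receptor subunit integrin alpha 5, covered 1718, 1315 and 1185 bp in Ctrl and 311, 200 and 239 bp in cKO, a log2 difference of -2.12 (SE 0.28). Plxna2, a semaphorin receptor gene, covered 1670, 1846 and 1790 bp in Ctrl and 427, 583 and 280 bp in cKO. At each of the 5 the cKO libraries lay below all Ctrl libraries, and at Slc9a9, Itga5, Pcdha11 and Vill at least 1 cKO library covered 200 bp, the width of the narrowest peak in its list. Pcdha11, of the clustered protocadherins, covered 1079, 894 and 1082 bp in Ctrl and 329, 200 and 200 bp in cKO. Vill, a villin-like gene, covered 946, 622 and 779 bp in Ctrl and 276, 247 and 200 bp in cKO.

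Among the wider members, Carm1 covered 1184, 1108 and 1088 bp in Ctrl, 1268, 1412 and 1273 bp in cKO and 1288, 941 and 1115 bp in Mesp1-Cre Ctrl. Its log2 difference of 0.60 (SE 0.10) between cKO and Ctrl had an adjusted p of 0.0768 in limma after centring. Without centring it was 0.23 with an adjusted p of 0.207. Heca covered 604, 618 and 629 bp in Ctrl and 960, 741 and 682 bp in cKO. At both genes the groups did not overlap. Cnot4, a ubiquitin ligase gene of the CCR4-NOT complex, covered 929, 845 and 789 bp in Ctrl and 1019, 1033 and 916 bp in cKO, and Gpbp1, which encodes a GC-rich promoter binding protein, 1006, 1025 and 1181 bp against 1167, 1349 and 1097 bp. At these and at the fifth, a region at the small nucleolar RNA gene SNORD93, the groups overlapped, and the adjusted p lay between 0.104 and 0.136 for Cnot4, Gpbp1, Heca and SNORD93.

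Between Mesp1-Cre Ctrl and Ctrl, limma called 3 of the 13644 regions, or 0.022%, and no member, with 292 members narrower and 218 wider in Mesp1-Cre Ctrl at an unadjusted p under 0.05. Without Mesp1-Cre Ctrl library 1 it called 1 region and no member, with 416 narrower and 257 wider at an unadjusted p under 0.05. The narrower members with the smallest p lay at Wdr86, 1700073E17Rik, Gjd3, Larp1 and Fam69b. Wdr86 covered 306, 366 and 264 bp in Mesp1-Cre Ctrl, 1351, 1028 and 914 bp in Ctrl and 529, 570 and 367 bp in cKO, with a log2 difference of -1.60 (SE 0.24) and an adjusted p of 0.13, against -1.81 and 0.0625 without centring. Gjd3, a connexin gene, covered 293, 325 and 281 bp in Mesp1-Cre Ctrl and 1107, 788 and 837 bp in Ctrl. Larp1, which encodes an RNA-binding protein of ribosomal protein mRNAs, covered 549, 508 and 585 bp against 1604, 1063 and 1159 bp. At these 3 the Mesp1-Cre Ctrl libraries were below every other library. When only the largest peak of each library was measured, the Larp1 difference became 0.055 on the log2 scale.

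On the wider side, Shroom3, whose protein drives apical constriction of epithelial cells, covered 1096, 934 and 1074 bp in Mesp1-Cre Ctrl, 562, 683 and 661 bp in Ctrl and 799, 637 and 606 bp in cKO. Its log2 difference was 0.92 (SE 0.14), with an adjusted p of 0.145 in limma, against 0.71 and 0.186 without centring. Gch1, the GTP cyclohydrolase gene, covered 1080, 900 and 899 bp against 813, 622 and 804 bp in Ctrl. Nfkbid, Zfp112 and 2010109A12Rik, which shares its promoter with Ccni, followed, with adjusted p of 0.378 to 0.418. In the plot of named promoters each library is a point.

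**Figure D5:**
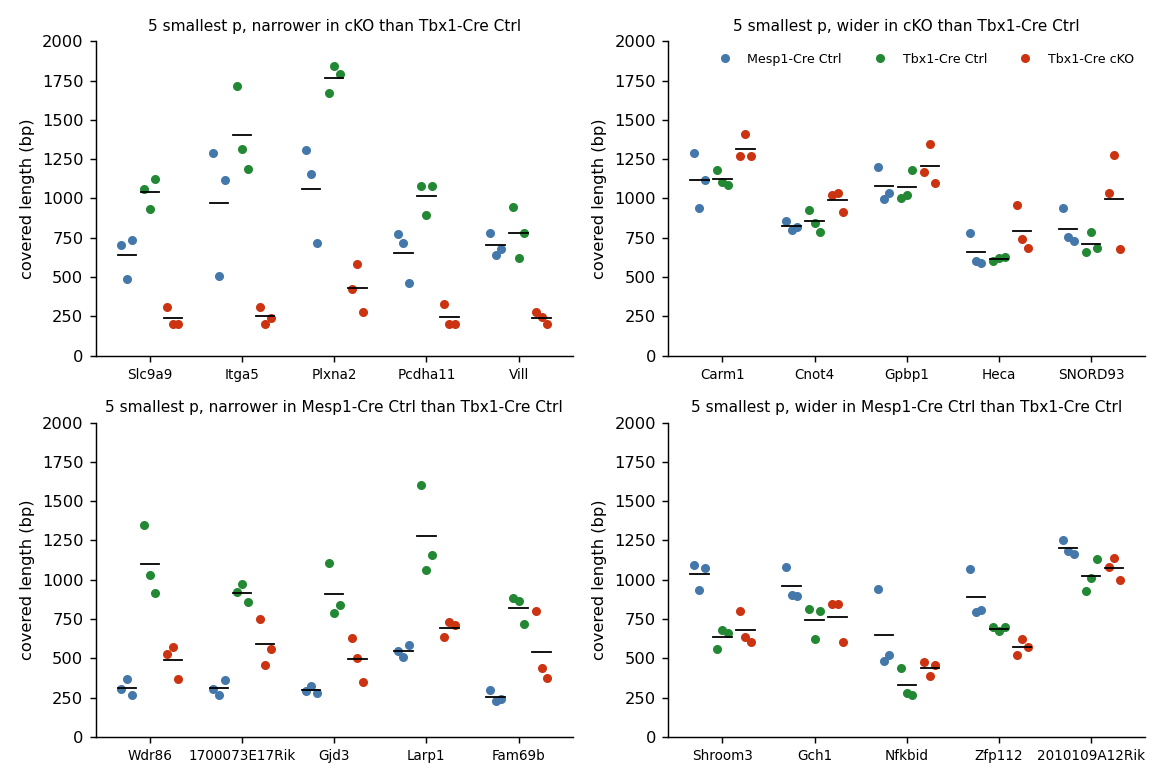
Covered length in bp of the members with the 5 smallest p in each direction, for cKO and for Mesp1-Cre Ctrl against Tbx1-Cre Ctrl, with 1 point per library and a bar at each mean of 3. At Slc9a9 the cKO points lie between 200 and 312 bp and the Ctrl points between 936 and 1122 bp, while the wider promoters differ by less.

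The genes of the mesoderm list held 24 member regions at 21 genes, of which 15, or 62.5%, were narrower in all 3 cKO libraries and none wider, against the 43.9% of all regions given above. After centring, their log2 differences between cKO and Ctrl ran from -1.33 to 0.23 with a median of -0.08, the lowest adjusted p in limma was 0.202, and 2 had an unadjusted p under 0.05. Without centring 3 of the 24 were called narrower, at Irs4, Lhx2 and Sema3c, where that fit called 7.31% of all regions and 6.07% of members. Irs4, an insulin receptor substrate gene on chromosome X, covered 832, 1393 and 897 bp in Ctrl, 200, 611 and 247 bp in cKO and 653, 564 and 672 bp in Mesp1-Cre Ctrl. Lhx2, a LIM homeodomain gene of branchiomeric muscle progenitors, covered 955, 962 and 844 bp in Ctrl and 545, 569 and 311 bp in cKO. Sema3c, a semaphorin gene of outflow tract development, covered 887, 1066 and 1053 bp in Ctrl and 726, 673 and 524 bp in cKO. All 3 had groups without overlap.

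At Isl1 and Nrg1 the groups overlapped. Isl1 covered 684, 755 and 888 bp in Ctrl, 718, 629 and 602 bp in cKO and 672, 647 and 688 bp in Mesp1-Cre Ctrl. Nrg1, a growth factor gene, covered 1381, 1017 and 1642 bp in Ctrl and 1086, 989 and 1126 bp in cKO. Mef2c, a muscle transcription factor gene, had the largest SE of the list, 0.46 on the log2 scale, with 1069, 1662 and 1366 bp in Ctrl, 983, 274 and 593 bp in cKO and 1385, 394 and 786 bp in Mesp1-Cre Ctrl, and its adjusted p was 0.357. Gata6 covered 850, 500 and 649 bp in Ctrl, 700, 246 and 270 bp in cKO and 897, 972 and 1148 bp in Mesp1-Cre Ctrl, where it was wider than in every library of the other groups.

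Of the 14 housekeeping reference genes 12 were members. Ywhaz had a broad promoter open in all 9. Of the 12 regions 3 were narrower in all 3 cKO libraries, at Gapdh, Rplp0 and Sdha, against 43.9% of all regions and 41.0% of members. Gapdh, the glycolytic enzyme gene, covered 1826, 1165 and 1514 bp in Ctrl, 901, 607 and 350 bp in cKO and 1215, 536 and 636 bp in Mesp1-Cre Ctrl, with an adjusted p of 0.219. Actb, the cytoplasmic actin gene, covered 969, 869 and 1059 bp in Ctrl and 1122, 1192 and 705 bp in cKO. Pgk1, a glycolytic gene on chromosome X, covered 805, 818 and 809 bp in Ctrl, 835, 851 and 744 bp in cKO and 834, 753 and 846 bp in Mesp1-Cre Ctrl. At Actb and Pgk1 the groups overlapped.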

How the data were processed

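Peak lists of 9 ATAC-seq libraries were used. They hold a chromosome, a start and an end per peak, with no score or read count, so all values are interval lengths in bp of the intervals as deposited by the authors. Per the study's methods, the authors trimmed adapters with cutadapt, aligned reads to mm9 with Bowtie2 (2.3.4.3 per the labels), kept unique concordant pairs, removed duplicates and mitochondrial reads, and called peaks per library with MACS2, without pooling. The narrowest peak was 199 bp in the 3 Mesp1-Cre lists and 200 bp in the other 6, so starts may be counted from different bases. No pair of lists shared more than 0.047% of its intervals exactly. TSSs came from the GENCODE annotation of NCBIM37 (mm9), whose chromosome 1 ends beyond the last peak of that chromosome in every list.

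Peaks were merged and assigned with at least 1 bp of overlap in Python 3.11.15 (numpy 2.4.6, pandas 2.3.3). Groups were compared library by library in exact permutation tests (two-sided). Log2 covered lengths, centred on each library's median, were fitted over all 13644 regions open in all 9 libraries with limma 3.58.1 (R 4.3.3, eBayes with trend, Benjamini-Hochberg adjustment, 0.05). The procedures were checked on simulated data. The members, gene lists, motifs and tests were chosen with earlier results of these data known. Named were the 5 members with the smallest p in each direction, since fewer than 5 passed, members of the mesoderm and housekeeping lists, the 5 widest and 5 narrowest members and those nearest the limits of the rule, and a few of these are not reported here. Symbols of 1 mesoderm and 2 neural crest genes were not matched. Peaks outside chromosomes 1 to 19 and X were left out. Alternatives changed the width limit, TSS distance, annotation, overlap, peak selection, libraries, width measure, centring and replicate block. Leaving out Mesp1-Cre library 1 from all comparisons of its group was added after seeing the data. Plots used matplotlib 3.10.9.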

Additional observations from a re-analysis of the deposited data

Results flagged for a closer look

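Peaks outside chromosomes 1 to 19 and X belong to no comparison. Each Mesp1-Cre Ctrl list held 2 peaks on the mitochondrial genome and the other 6 lists held 0, although the methods describe removal of mitochondrial reads. Whether the lists of all groups were processed alike was not tested. Peaks on chromosome Y numbered from 2 in the list of cKO library 1 to 30 in that of Ctrl library 3.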

How the results depend on the processing

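The number of members was 5629 when each library had to cover at least 50% of the merged region, against 10338, stayed between 8199 and 10488 under the 7 other alternatives, and was 10346 to 11007 with 1 library left out, the highest without cKO replicate 3. Median covered length, upstream and downstream reach, their difference and the difference between members and distal regions kept their direction for cKO against Ctrl under every alternative run. With 1 library left out they ranged from -208 to -158 bp, -63 to -43.5 bp, -128 to -101 bp, -67.8 to -47.2 bp and 0.14 to 0.23. For Mesp1-Cre Ctrl against Ctrl the median differed by -148.5 to -70.5 bp, and for cKO against Mesp1-Cre Ctrl by -120 to -42.2 bp. With the mean over members in place of the median, the Mesp1-Cre Ctrl and Ctrl libraries overlapped (exact permutation p = 0.2). Members called narrower in cKO numbered 0, 628 without centring, 2 with eBayes without trend and 0 to 24 with 1 library left out, and those wider 0 to 1. For Mesp1-Cre Ctrl, 1 member was called narrower with the largest peak only, and 0 with 1 library left out in either direction. The cause of these changes was not tested. Of 20 promoters named for their small p, Slc9a9, Itga5, Plxna2, Pcdha11, Vill and Carm1 had an adjusted p under 0.05 in limma in 16 of their settings in all, and 1 changed sign in 1 setting (Larp1, 0.055 with the largest peak).

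Replicate numbers are shared between groups, and the deviations of same-numbered libraries correlated between -0.018 and 0.104, not above 0.1 in every pair. The main comparisons therefore used no pairing. The Mesp1-Cre numbers differ between the lists and the study's sample summary, so these correlations cannot decide whether libraries shared more than a number. With the replicate block, the differences in median covered length of -191, -111 and -79.8 bp, in reach of -55.7 and -116 bp, in downstream minus upstream reach of -60.2 bp and against distal regions of 0.17 are the same by construction, with exact sign-flip p of 0.25 as the smallest possible, and limma called 0 members in either comparison.

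Peak lists without heights and with unknown depth limit these values. A promoter near the calling limit can lose its peak and leave the members, and widths under 200 bp cannot occur in the Tbx1-Cre lists.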
